A study of Mus musculus with 14 samples.

Results

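The enzymes that turn cholesterol into bile acids and join the product to taurine or glycine were followed in mouse livers with and without the catalytic alpha subunits of AMPK, the kinase that senses a low cellular energy charge. The members were 9 named genes, Cyp7a1, Cyp8b1, Cyp27a1, Cyp7b1, Hsd3b7, Akr1d1, Baat, Slc27a5 and Cyp39a1, picked by symbol for their place in the pathway. All 9 were found, each on 1 row, among 19505 named genes of an Affymetrix array labelled with WT PLUS chemistry. Values are on a log2 scale, on which 1 unit is a doubling.

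Every mouse was a male on the C57BL/6 background, homozygous for floxed alleles of both AMPK alpha genes, so the controls carried the floxed alleles as well. Diet with high fat content began at 6 weeks of age and ran for 4 weeks before virus was given through the jugular vein. The virus was AAV8 with the TBG promoter, which is active in hepatocytes, and it was either an empty vector (control, 6 samples) or carried Cre (knockout, 8 samples). All animals of both groups then received metformin at 50 mg/kg/day for 3 weeks, and liver was taken after a 16 h fast. The labels give an age of 4 months, which is more than these times add up to. Livers without metformin were not analysed here. Each difference below is thus between mice given Cre and mice given the empty vector, all under the drug. An effect of Cre itself was not tested apart from the loss of the alpha subunits. Whether every sample came from its own mouse is not stated, so p-values describe variation among the samples, part of which may be technical.

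Bile acids are made in hepatocytes. The classic route starts when Cyp7a1, its rate-limiting enzyme, hydroxylates the ring of cholesterol, and the alternative route starts when Cyp27a1 oxidises the side chain and Cyp7b1 then hydroxylates the ring. Cyp39a1 hydroxylates the ring of another oxysterol. Both routes meet at Hsd3b7, which oxidises and isomerises the ring, and at Akr1d1, which reduces it. Cyp8b1 decides how much of the intermediate becomes cholic acid; in mice, what escapes it becomes mostly muricholic acids, through Cyp2c70. Slc27a5 activates bile acids with coenzyme A and Baat conjugates them. Fasting, the nuclear receptors for bile acids and the gut hormone pathway that signals through Fgfr4 and Klb are known to control Cyp7a1 and Cyp8b1.

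By correlation the arrays formed 2 sets, which no label names. Correlations over all rows were 0.988 to 0.994 within a set and 0.951 to 0.963 across sets. Control 1 to 3 with knockout 1 to 4 made up set 1, and the remaining 7 arrays, control 4 to 6 with knockout 5 to 8, made up set 2. As each set had 3 control and 4 knockout samples, differences were fitted with the set as a term in limma, with p-values adjusted by Benjamini-Hochberg over all 19505 genes and 0.05 as the threshold. "Rose" and "fell" are used only of genes past it. Knockout 7 and 8 carry descriptions with the same numbers as knockout 5 and 6. Identical arrays were not found. Knockout 5 with 7 (r = 0.989) and 6 with 8 (r = 0.991) correlated within the range of pairs within a set, taken over both sets. This cannot show whether they came from separate mice. Each was counted as a sample, and fits with them averaged or left out are given below. Prkaa2 was lower in knockout by -1.13 ± 0.08 (SE; limma adjusted p = 1.92e-06) and Prkaa1 by -0.67 ± 0.13 (SE; limma adjusted p = 0.0302), and each of the 8 knockout samples was lower than the controls of its set for Prkaa1 and Prkaa2 alike. Which exons the rows cover is not known here. Control 1 (24.0) and control 4 (23.7) stood apart on principal component 2, where the other arrays spanned -14.0 to 9.63. Hepatocyte markers were bright (8 of 8 measured, mean over markers 12.9 to 13.3 on every array).

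Of the bile acid enzymes, Cyp8b1 rose in the knockout livers and the other 8 did not pass the threshold. Among all genes 0.702% were called, 0.431% higher and 0.272% lower. The 9 members had a median difference of 0.03, with 5 positive and 4 negative, against a median of 0.00 over all genes (0.00163 to 3 significant digits). At an unadjusted p under 0.05 there were 2 members, Cyp8b1 and Cyp39a1, against 10.4% of all genes. The median size of the members' differences, without regard to sign, was 0.06, against 0.08 over all genes. Without the set term no gene of the array passed in limma (0 of 19505, with 3.36% of genes, 655, at an unadjusted p under 0.05), so the Cyp8b1 call rests on the set term.

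**Figure D1:**
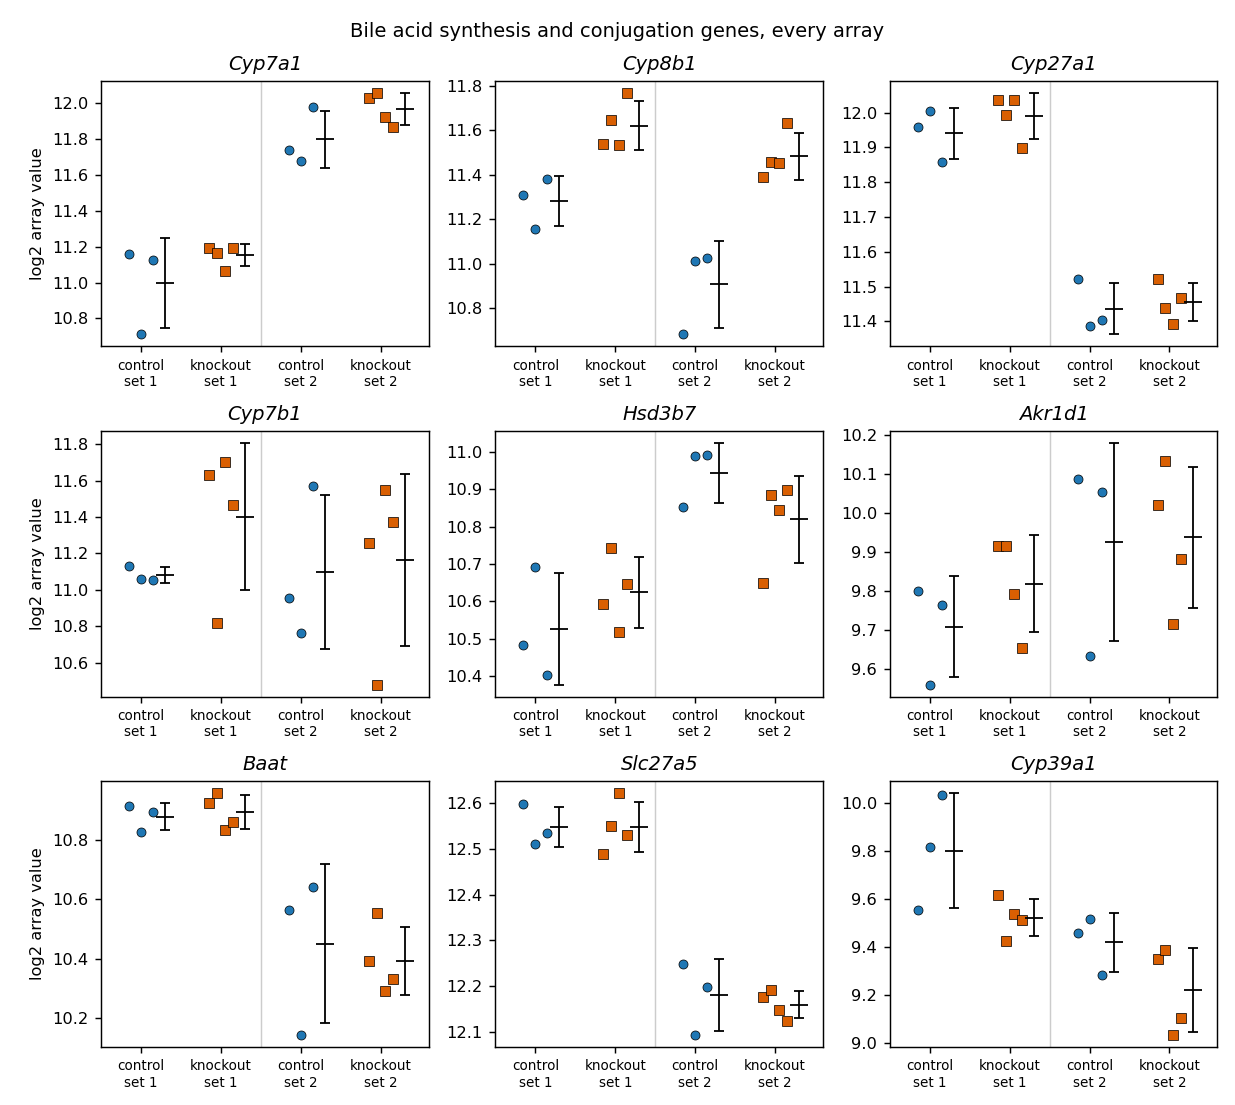
Log2 array values of the 9 genes in every sample, by group and array set; circles are control, squares knockout, and the bars give the mean ± SD of 3 or 4 samples. For Cyp8b1 the knockout squares sit above the control circles in both sets, with means of 11.28 and 11.62 in set 1 and 10.91 and 11.48 in set 2, while the groups overlap for the other genes.

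The 250 bases before the start of Cyp8b1, from RefSeq on GRCm38.p6, are shown because this was the member that rose. Capitals mark CAAAGTCCA, a motif bound by the liver nuclear receptor HNF4A, at bases -67 to -59 from the start, and TATAAA, the TATA box, at bases -31 to -26, on chr9:121916306-121916555, minus strand.
Cyp8b1 promoter: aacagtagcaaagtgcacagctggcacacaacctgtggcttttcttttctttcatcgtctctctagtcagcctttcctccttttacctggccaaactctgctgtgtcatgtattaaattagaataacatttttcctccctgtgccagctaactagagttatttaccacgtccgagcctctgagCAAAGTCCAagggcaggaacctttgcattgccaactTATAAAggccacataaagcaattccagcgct
Searched on both strands, CAAAGTCCA was found in 0.384% of 32851 promoter windows of this length and TATAAA in 12.4%; the motifs do not overlap each other here. AGGTCA, the half-site of many nuclear receptors, was in 14.0% of windows and not in this one. Windows were at hand for 4 of the 9 members. Those of Cyp27a1, Hsd3b7 and Akr1d1 held neither CAAAGTCCA nor TATAAA, and the Akr1d1 window held AGGTCA. A match of letters is a description, not a bound site.

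Cyp8b1, the enzyme that directs synthesis to cholic acid, was at 11.31, 11.16 and 11.38 in control 1 to 3 and at 11.54, 11.64, 11.54 and 11.77 in knockout 1 to 4. In set 2 it was at 10.68, 11.01 and 11.02 in control 4 to 6 and at 11.39, 11.46, 11.45 and 11.63 in knockout 5 to 8. The groups did not overlap in either set. This held for 0.774% of all genes in this direction and 0.538% in the other, while 9.58% of genes had no overlap in set 1 and 7.51% in set 2. They did not overlap over the 14 arrays as a whole either (lowest knockout 11.389, highest control 11.380), as for 0.123% of genes. The difference was 0.46 ± 0.08 (SE; 95% interval 0.28 to 0.63; limma adjusted p = 0.0220), a 1.37-fold rise (1.22 to 1.55). It was 0.34 in set 1 and 0.58 in set 2, and the limma interaction of 0.24 (95% interval -0.10 to 0.58; adjusted p = 0.998; 4.83% of all genes had an unadjusted interaction p under 0.05) did not pass. A two-sided exact permutation within the sets gave an unadjusted p = 0.000816, the smallest this design allows. One over all 3003 splits, chosen after seeing the data, gave an unadjusted p = 0.000333. As the groups did not overlap, both had to lie at or near their smallest possible values, so they add no separate support.

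The direction of the Cyp8b1 difference was the same under all 29 other processing settings, from 0.34 to 0.58, and 21 of them kept the call. Leaving out control 2 lost it (0.45; limma adjusted p = 0.0623), as did leaving out control 1 and control 4 together (0.41; adjusted p = 0.0662). It was also lost with knockout 5 averaged with 7 and 6 with 8 (0.44; adjusted p = 0.0557), and without knockout 7 and 8 (0.41; adjusted p = 0.0930). Neither set alone gave a call (adjusted p = 0.449 and 0.470). Control 4, the lowest array for Cyp8b1, lay 0.34 below the other controls of its set; without it the difference was 0.39 (adjusted p = 0.0447). In liver tissue, a change in the share of expressing cells and a change of RNA per cell cannot be told apart. The mean over the 8 hepatocyte markers stayed between -0.04 and 0.05 of the set's control mean in the 8 knockout samples and between -0.03 and 0.02 in the controls. This mean covers opposite differences of single markers, named after their values were seen. Tat was at 0.23 ± 0.08 (SE; limma adjusted p = 0.272) and Fgb at -0.12 ± 0.06 (SE; limma adjusted p = 0.476), and neither passed. Whether markers this bright could show a change in the share of hepatocytes was not tested.

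**Figure D2:**
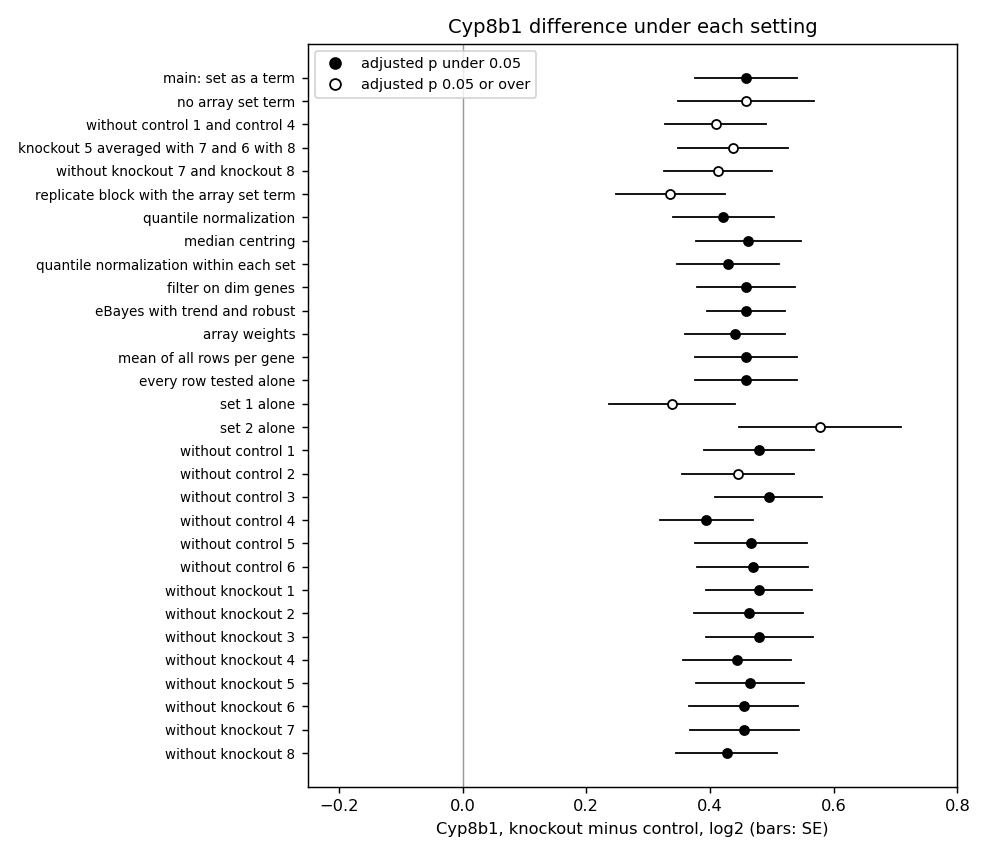
Knockout minus control for Cyp8b1 on the log2 scale, with SE bars, as reported and under 29 other processing settings; filled points have an adjusted p under 0.05. All points lie right of 0, between 0.34 and 0.58, and 8 of the 29 are open.

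Cyp7a1, the rate-limiting enzyme, was at 11.16, 10.71 and 11.13 in control 1 to 3 and at 11.19, 11.17, 11.07 and 11.19 in knockout 1 to 4. Set 2 had it at 11.74, 11.68 and 11.98 in control 4 to 6 and at 12.03, 12.05, 11.92 and 11.87 in knockout 5 to 8. The groups overlapped in both sets, and 5 of 8 knockout samples lay above every control of their set. The difference was 0.16 ± 0.08 (SE; 95% interval -0.01 to 0.33; limma adjusted p = 0.526), which did not pass, with 0.15 in set 1 and 0.17 in set 2. Without control 2, the lowest array, it was 0.10 (limma adjusted p = 0.744). A two-sided exact permutation within the sets gave an unadjusted p = 0.0424. The gap between the sets, 0.81 (set 2 minus set 1), was the widest of the 9 members and larger than the difference of the groups. Over all genes 11% had a set gap over 1 in size, so at least that share had a wider gap than Cyp7a1.

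Cyp39a1, the oxysterol hydroxylase, had the lowest difference of the members. It was at 9.55, 9.82 and 10.03 in control 1 to 3 and at 9.61, 9.43, 9.54 and 9.51 in knockout 1 to 4. The arrays of set 2 were at 9.46, 9.52 and 9.28 in control 4 to 6 and at 9.35, 9.39, 9.04 and 9.11 in knockout 5 to 8. Of 8 knockout samples 5 lay below every control of their set, and the groups overlapped in both sets. The difference of -0.24 ± 0.09 (SE; 95% interval -0.42 to -0.05) had a limma adjusted p = 0.299 and did not pass. The two-sided exact permutation within the sets gave an unadjusted p = 0.0180. It was -0.28 in set 1 and -0.20 in set 2, and stayed negative under all 29 other processing settings (-0.29 to -0.18).

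Cyp7b1, the ring hydroxylase of the alternative route, was the most variable member, with a residual SD of 0.378 around the group and set means, against 0.051 to 0.169 for the others. In set 1 the controls were at 11.13, 11.06 and 11.05, and knockout 1 to 4 were at 11.63, 10.82, 11.70 and 11.46. In set 2 the controls were at 10.96, 10.76 and 11.57, and knockout 5 to 8 were at 11.26, 10.48, 11.55 and 11.37. Knockout 2 and knockout 6 were the lowest arrays of their sets, and the other knockout samples of set 1 lay above its controls. The difference of 0.19 ± 0.18 (SE; 95% interval -0.18 to 0.57; limma adjusted p = 0.785) left both a rise and a fall within its interval. It was 0.32 in set 1 and 0.07 in set 2. Its size depended on single arrays: it was 0.31 without control 6, 0.31 without knockout 6 and 0.095 without knockout 7 and 8, none of which passed.

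Cyp27a1, which opens the alternative route and also oxidises the side chain in the classic one, had a mean of 11.94 ± 0.07 (SD, n = 3) for the controls of set 1 and 11.99 ± 0.07 (SD, n = 4) for its knockouts. The means of set 2 were 11.44 ± 0.07 (SD, n = 3) and 11.46 ± 0.05 (SD, n = 4). The groups overlapped in each set, and the difference of 0.03 ± 0.06 (SE; 95% interval -0.09 to 0.16; limma adjusted p = 0.912) did not pass. Hsd3b7, the ring oxidase, ran from 10.40 to 10.69 in controls and 10.52 to 10.74 in knockout samples of set 1, and from 10.85 to 10.99 and 10.65 to 10.90 in set 2. Its difference was -0.01 ± 0.08 (SE; 95% interval -0.18 to 0.15; limma adjusted p = 0.980), positive in set 1 (0.10) and negative in set 2 (-0.12). Neither the pooled difference nor the limma interaction (-0.22; 95% interval -0.54 to 0.09; adjusted p = 0.998) passed. Akr1d1, the reductase, ran from 9.56 to 9.80 in controls and 9.65 to 9.92 in knockout samples of set 1, and from 9.63 to 10.09 and 9.72 to 10.13 in set 2. Its difference of 0.06 ± 0.09 (SE; 95% interval -0.13 to 0.26; limma adjusted p = 0.897) did not pass. Single arrays moved it, to 0.0039 when control 5 was left out and to 0.103 when control 4 was, and leaving out knockout 7 and 8 gave 0.127. It was 0.023 without control 2, 0.034 without knockout 6, 0.096 without control 6 and 0.099 without knockout 7. For Cyp27a1 the range over single arrays left out was 0.015 (without control 3) to 0.055 (without control 4).

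The conjugation genes differed little between the group means. Slc27a5, the bile acid coenzyme A ligase, ran from 12.51 to 12.60 in controls and 12.49 to 12.62 in knockout samples of set 1, and from 12.09 to 12.25 and 12.12 to 12.19 in set 2. It had the smallest residual SD of the members (0.051) and a difference of -0.01 ± 0.06 (SE; 95% interval -0.13 to 0.11; limma adjusted p = 0.978). The interval thus excludes a fold change above 1.08 or below 0.912. Baat, the conjugating transferase, ran from 10.83 to 10.92 and 10.83 to 10.96 in control and knockout samples of set 1. In set 2 it ran from 10.14 to 10.64 and 10.29 to 10.55. Its difference was -0.02 ± 0.08 (SE; 95% interval -0.19 to 0.15; limma adjusted p = 0.965). The sign of both genes, and of Hsd3b7, changed under some processing settings.

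**Figure D3:**
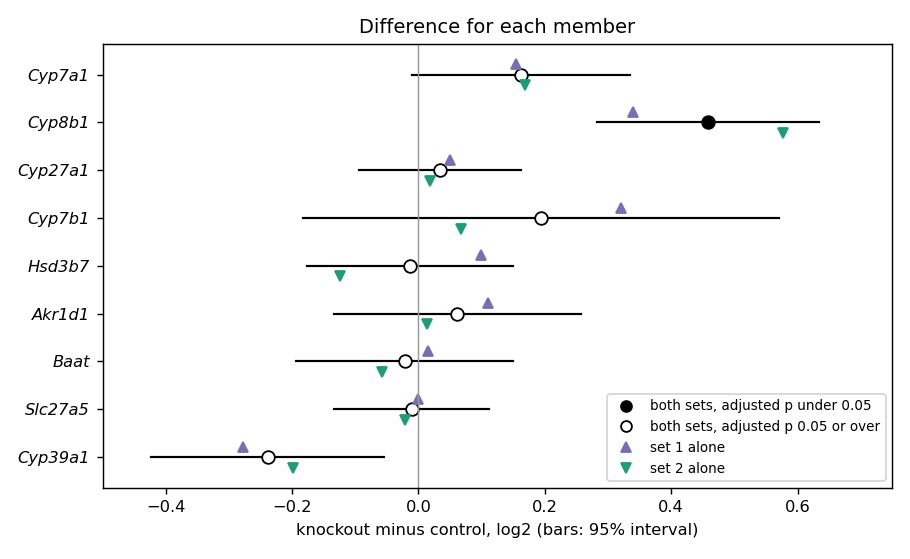
Knockout minus control on the log2 scale for the 9 genes, with 95% intervals from the limma fit with the set as a term; triangles give each set alone. Cyp8b1 alone is filled (adjusted p under 0.05), at 0.46 with 0.34 and 0.58 in the sets; Cyp39a1 lies lowest at -0.24.

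Relations of Cyp7a1 with the other 8 members were computed within each set of 7 arrays, 16 relations in all, since the sets form separate clusters. None passed after Benjamini-Hochberg adjustment. The highest was with Cyp8b1 in set 1, with Pearson's r = 0.716 (exact permutation p = 0.0502; adjusted p = 0.433) and Spearman's rho = 0.821 (exact permutation p = 0.0341; adjusted p = 0.546). In set 2 it was r = 0.582 (exact permutation p = 0.176; adjusted p = 0.642) and rho = 0.500 (exact permutation p = 0.267; adjusted p = 0.741). Without the 2 arrays farthest from the median of Cyp7a1, r was 0.689 in set 1 and -0.37 in set 2, so in set 2 it rested on control 4 and control 5. Both groups are in each set, so the group difference of Cyp8b1 is part of these values.

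Across the 14 arrays, after each set's mean was subtracted, the 9556 genes with a mean of at least 6 were ranked by Pearson's r with each member, as a description of likeness. With so many candidates and few arrays the top r can be high by chance, and how high was not tested. Akr1d1 and Baat, which both act after the ring hydroxylations, were alike: Baat ranked 1 for Akr1d1 at r = 0.852 (0.806 in set 1 and 0.914 in set 2), and Akr1d1 ranked 2 for Baat. Baat with Slc27a5, the conjugation pair, had r = 0.880 in set 2 but -0.14 in set 1. Them7, Tdo2 (r = 0.927), which opens tryptophan breakdown, and Pqbp1 (r = 0.922) were most like Cyp8b1, with Them7 at r = 0.936. Of these Them7 rose, by 0.66 ± 0.08 (SE; limma adjusted p = 0.00300), and the group difference enters every such r. For Cyp7b1 they were Rasgef1b (r = 0.936), the complement gene C8b (r = 0.913) and Sec63 (r = 0.867).

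Those most like Cyp7a1 were Ptpn21 (r = 0.884), Slc35d1 (r = 0.844) and Fam102a (r = 0.827), followed by Itih5, Secisbp2, 4931406C07Rik, Tmem128, Adamts12, Stbd1 and Sbds (r = 0.823 to 0.777). For Cyp39a1 they were Cnmd (r = 0.909), Anxa9 (r = 0.908) and Ccdc61 (r = 0.865), and for Hsd3b7 they were Mindy3 (r = 0.894), Ccni (r = 0.828) and Crip2 (r = 0.812). Cyp27a1 was most like Gm5108 (r = 0.855), Gm10100 (r = 0.840) and Zfhx4 (r = 0.784). Slc27a5 was most like Lilrb4a (r = 0.857), Foxp4 and Lars2 (r = 0.798). The other genes for Akr1d1 were Hsd3b2 (r = 0.844) and Mthfd1 (r = 0.829), and for Baat Sult1b1 (r = 0.861), a sulfotransferase, and Phax (r = 0.839).

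**Figure D4:**
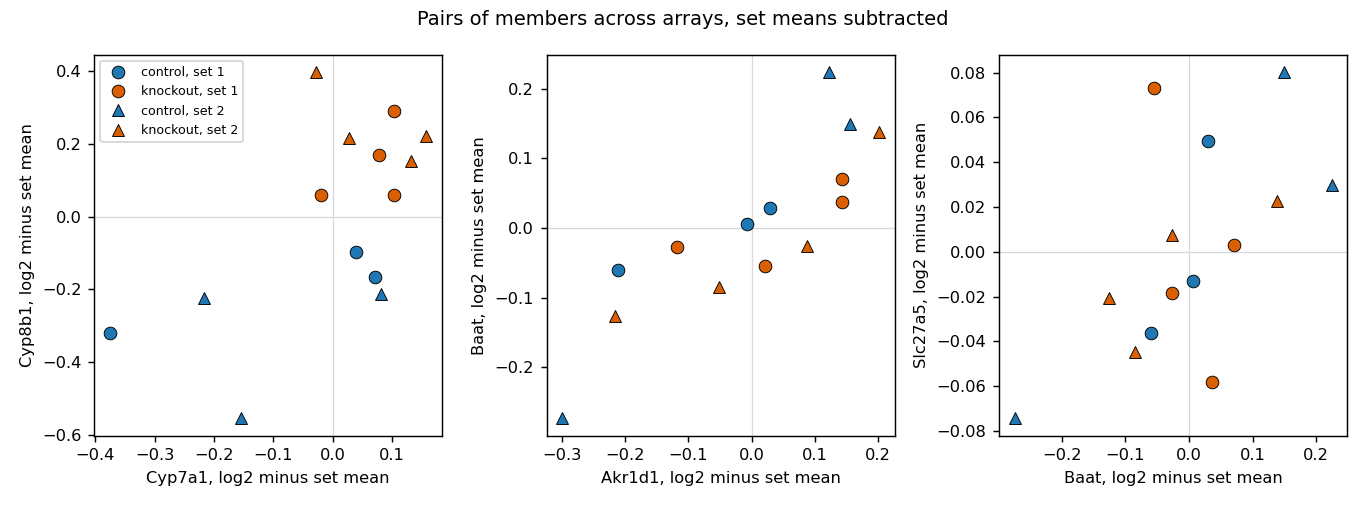
Log2 values minus the set mean for pairs of members, 1 point per array; colours are groups and shapes are sets. Akr1d1 and Baat follow each other in both sets (r = 0.806 and 0.914), while Baat and Slc27a5 do so in set 2 (0.880) and not in set 1 (-0.14).

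Among 12 genes of other synthesis steps, 8 differences were positive and 4 negative, with a median of 0.15 against 0.00 over all genes. Of them 2 rose and 0 fell, against 0.431% and 0.272% of all genes. At an unadjusted limma p under 0.05, 5 were higher and 2 lower, against 10.4% of all genes in either direction. The lower 2, named after their values were seen, did not pass. They were Cyp46a1 at -0.48 ± 0.12 (SE, limma adjusted p = 0.0968) and Cyp2c70 at -0.36 ± 0.13 (SE, limma adjusted p = 0.304). Both risers act in peroxisomes, where the bile acid side chain is shortened, and both also serve fatty acid oxidation. Acot8, a peroxisomal thioesterase, was at 8.02, 8.16 and 8.11 in the controls and 8.28, 8.54, 8.60 and 8.54 in the knockout samples of set 1. Set 2 had it at 7.80, 7.59 and 7.67 in controls and 8.11, 8.07, 7.93 and 8.13 in knockout samples. Its groups did not overlap in either set, as for 0.774% of all genes in this direction, and it rose by 0.38 ± 0.07 (SE; limma adjusted p = 0.0254). Hsd17b4, the peroxisomal bifunctional enzyme for branched and bile acid side chains, rose by 0.31 ± 0.07 (SE; limma adjusted p = 0.0439), also without overlap in either set. Both calls depended on single arrays: that of Acot8 was lost without any 1 of control 1, 2 or 5 or knockout 4 (adjusted p up to 0.0594), and that of Hsd17b4 without any 1 of 12 of the 14 arrays (adjusted p up to 0.113).

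Of 19 measured regulators and feedback genes limma called 0 with the set term, against 0.702% of all genes. Without that term it called 0, as over all genes. At an unadjusted limma p under 0.05 there was 1, against 10.4% of all genes. Differences were positive for 9 and negative for 10, with a median of -0.01 against 0.00 over all genes. Nr1h4, the bile acid receptor FXR, differed by 0.08 ± 0.07 (SE; 95% interval -0.06 to 0.22; 0.05 without control 2 or without knockout 6), and Nr0b2, the repressor SHP that it induces, by 0.31 ± 0.17 (SE; 95% interval -0.06 to 0.67). Fgfr4, the receptor of the gut hormone signal, differed by -0.17 ± 0.08 (SE), and its partner Klb by 0.13 ± 0.08 (SE). Fgfr4 was at -0.01 in set 1 and -0.34 in set 2, and Klb at 0.02 and 0.24. The Fgfr4 groups did not overlap in set 2, as for 7.51% of all genes in either direction. The limma interactions did not pass (adjusted p = 0.998 for both, with an unadjusted p = 0.0436 for Fgfr4), and Klb was 0.08 without control 6. Hnf4a, the gene of the receptor whose motif is in the Cyp8b1 window, differed by 0.08 ± 0.06 (SE), and Nr5a2, a nuclear receptor that drives Cyp7a1 and Cyp8b1, by 0.02 ± 0.07 (SE). Ppara, the fasting receptor for fatty acids, had the smallest p of the list, at 0.21 ± 0.07 (SE; limma adjusted p = 0.217).

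Of 13 transport genes, for bile acids and for other contents of bile such as lipids, 2 rose and 0 fell, against 0.431% and 0.272% of all genes. The list had 6 positive differences and a median of -0.00. The bile acid carriers Slc10a1 and Abcb11, named after their values were seen, did not pass. Slc10a1 was at -0.003 ± 0.07 (SE; limma adjusted p = 0.996) and Abcb11 at 0.06 ± 0.08 (SE; limma adjusted p = 0.879). At an unadjusted limma p under 0.05, 4 were higher and 2 lower, against 10.4% of all genes in either direction. Slco1a4, a sinusoidal uptake transporter of organic anions, was at 9.40, 8.73 and 9.34 in the controls and 9.85, 9.69, 9.65 and 9.71 in the knockout samples of set 1. Set 2 had it at 9.85, 9.05 and 9.35 in controls and 10.24, 10.52, 9.95 and 10.05 in knockout samples. The groups did not overlap in either set, as for 0.774% of all genes in this direction, and it rose by 0.67 ± 0.14 (SE; limma adjusted p = 0.0335). Abcb4, which moves phospholipid into bile, rose by 0.33 ± 0.06 (SE; limma adjusted p = 0.0259), again without overlap. The Slco1a4 call was lost without any 1 of 10 arrays and the Abcb4 call without any 1 of 8 (adjusted p up to 0.0953 and 0.0837).

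Of 13 measured genes for cholesterol supply limma called 0 with the set as a term, against 0.702% of all genes. Without the term it called 0, as over all genes. With it, 6 had an unadjusted p under 0.05, 2 higher and 4 lower, against 10.4% of all genes. They had 7 positive and 6 negative differences and a median of 0.01. The smallest p-values were those of Nceh1, a cholesteryl ester hydrolase, at 0.35 ± 0.08 (SE; limma adjusted p = 0.0682), and Stard5, a sterol-binding protein, at 0.24 ± 0.07 (SE; adjusted p = 0.153). Of the 6 negative genes, the 4 with an unadjusted limma p under 0.05 are named after their values were seen. Srebf2, the gene of the sterol-sensing transcription factor, was at -0.33 ± 0.10 (SE; limma adjusted p = 0.163), and its target Hmgcs1, of cholesterol synthesis, at -0.50 ± 0.19 (SE; adjusted p = 0.346). Insig1, which retains that factor when sterol is plentiful, was at -0.58 ± 0.21 (SE; adjusted p = 0.293), and the sterol carrier Stard4 at -0.51 ± 0.18 (SE; adjusted p = 0.286).

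**Figure D5:**
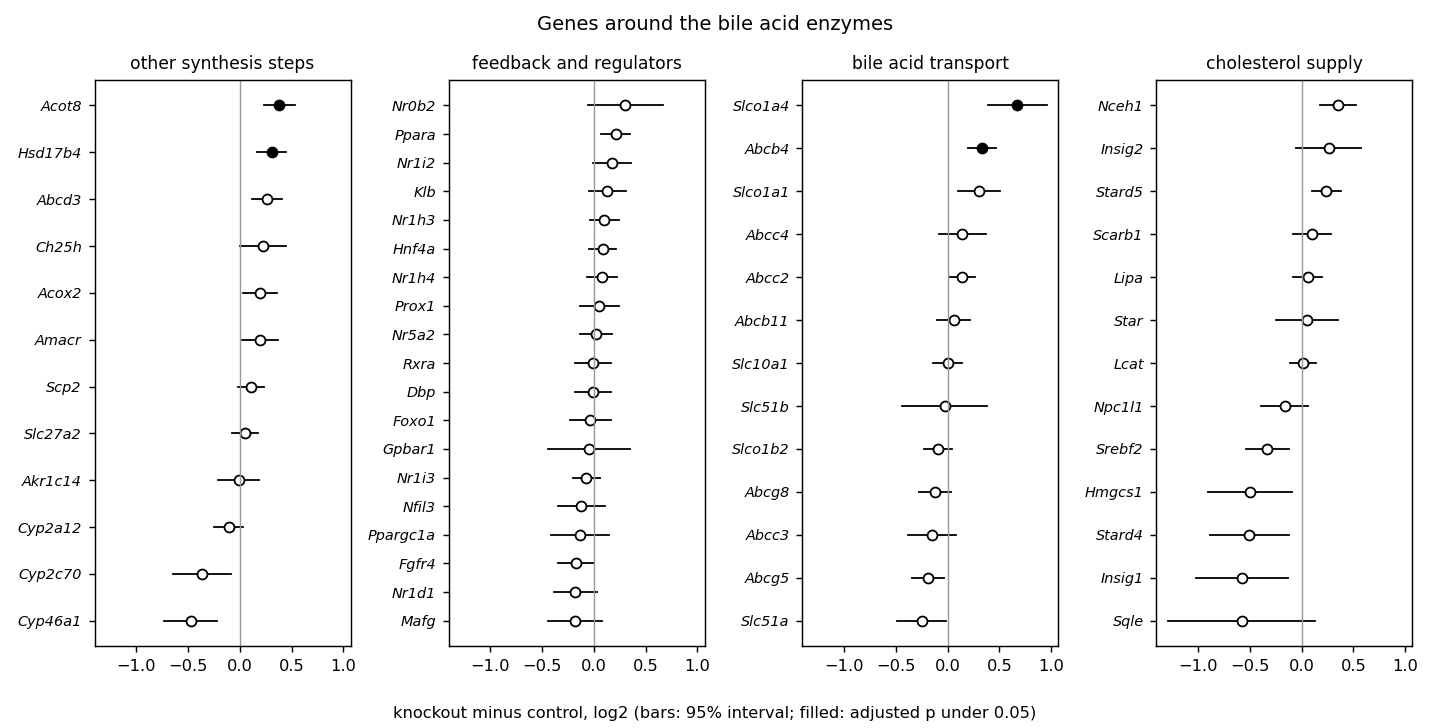
Knockout minus control on the log2 scale, with 95% intervals, for genes of other bile acid synthesis steps (12), regulators (19), transport (13) and cholesterol supply (13); filled points have an adjusted p under 0.05. Acot8 and Hsd17b4 (0.38 and 0.31) and Slco1a4 and Abcb4 (0.67 and 0.33) are filled.

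Markers of other liver cells had no call, against 0.702% of all genes. The mean over 8 endothelial markers ran from 7.07 to 8.24 in control and 7.43 to 8.32 in knockout samples, with 4 of 8 differences positive, and that over 5 bile duct markers from 5.21 to 6.13 and 5.00 to 6.19. Those of 8 stellate cell markers (3 positive) ran from 7.32 to 8.33 and 7.45 to 8.18, and those of 7 macrophage markers (6 positive) from 7.92 to 8.69 and 7.94 to 8.81. The 5 lymphocyte markers were all positive (4.67 to 5.45 and 4.98 to 5.40) and the 2 blood markers both negative (8.31 to 8.90 and 8.01 to 8.85). These ranges pool the 2 sets and so hold the gap between them. Relative to the control mean of the set, lymphocyte markers ran from -0.31 to 0.20 in control and -0.01 to 0.51 in knockout samples. Blood markers ran from -0.12 to 0.15 and -0.33 to 0.10, and endothelial ones from -0.73 to 0.38 and -0.37 to 0.32. Stellate markers ran from -0.37 to 0.29 and -0.30 to 0.17, macrophage ones from -0.49 to 0.29 and -0.47 to 0.41. Bile duct ones ran from -0.30 to 0.59 and -0.29 to 0.66. Control 1 was -1.09 and control 4 -0.70 for endothelial markers when set against the remaining controls of the same set. Both were also lower for macrophage (-0.73 and -0.31), stellate cell (-0.55 and -0.11), lymphocyte (-0.46 and -0.20) and bile duct markers (-0.44 and -0.11). Blood markers were at 0.22 and -0.06. For Cyp8b1 these arrays lay at 0.04 and -0.34 relative to those controls, and for Cyp39a1 at -0.37 and 0.06. The part of cell composition in these values was not tested. Among hepatocyte zones, 1 of 6 measured pericentral markers fell, against 0.272% of all genes, and 0 of 4 periportal markers passed, with medians of -0.01 and 0.03. The pericentral one was Slc1a2, named after its values were seen, at -0.37 ± 0.08 (SE; limma adjusted p = 0.0454).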

How the data were processed

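Liver RNA of 6 control and 8 knockout samples was measured on 14 arrays. The authors deposited log2 values for 22206 rows; per the submitters' processing notes, Partek and RMA were used (no versions given), and the log2 scale was read from the values (2.13 to 13.8). Array medians were 5.73 to 5.87. Arrays give no read depth, and the number of arrays limits the precision. Probe annotation gave 19572 rows 1 symbol, updated by gene identifier; the brightest row of the 55 genes with several was used. No filter was set on level.

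Arrays were split into 2 sets by average-linkage clustering on correlation. Differences between the groups came from limma 3.58.1 under R 4.3.3 (lmFit, eBayes), with a set term and 11 residual degrees of freedom, adjusted by Benjamini-Hochberg over 19505 genes. Exact permutations ran within the sets, and over all splits of the 14 arrays as an addition made after seeing the data. The fits were tested on simulated data. The members and lists, the set term and the rule for named genes were chosen with earlier results of these data known. Named genes are the members, the targeted genes, 6 regulators, per list up to 4 past the threshold or the 2 with the smallest p, and the genes most like each member by correlation (3 each, 10 for Cyp7a1). Of the listed genes, 6 pathway genes and 9 markers were not analysed here. Alternatives covered the set term, single arrays, control 1 and 4, repeated descriptions, the replicate number, normalization, filters, variance model, array weights, rows and each set alone.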

Additional observations from a re-analysis of the deposited data

Results flagged for a closer look

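Nr5a2, a regulator of Cyp7a1 and Cyp8b1, was at 10.49 in knockout 7, apart from the other 3 knockout samples of set 2, of which the nearest was at 10.29. Its gap was 0.953 of the range of the 4 samples. Chance flags about 1 in 20 groups, and this was the only one among those examined for the 24 named genes outside the likeness lists. A single flag is thus no more than chance would give.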

How the results depend on the processing

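Of the 9 members 1 was called, Cyp8b1. The count was 0 with no array set term, without control 1 and control 4, with knockout 5 averaged with 7 and 6 with 8, without knockout 7 and 8, with the replicate block, and in set 1 or set 2 alone, and 0 to 1 with single arrays left out. Of the other pathway genes 4 were called: 0 with no set term, without knockout 7 and 8, with the replicate block and in either set alone, 2 with the averaged samples, 9 with trend and robust, and 0 to 4 with single arrays left out. Of the 2 targeted genes, 0 were called with no set term, 1 without control 1 and 4, without knockout 7 and 8, with the replicate block and in either set alone, and 1 to 2 with single arrays left out. Over all genes the count of 137 became 0 with no set term, 26 without control 1 and 4, 67 with the averaged samples, 12 without knockout 7 and 8, 2 with the replicate block, 2 in each set alone, 223 with dim genes left out, 325 with trend and robust, and 44 to 132 with single arrays left out. Fewer arrays, or fewer residual degrees of freedom, enter most of these; for the rest the cause was not tested. Cyp8b1 was 0.34 with the replicate block (limma adjusted p = 0.353). The titles' replicate numbers did not pair the samples: with group and set means removed, same-numbered samples correlated at 0.02 to 0.09, and without the set removed number 4, which lies in different sets, at -0.70.

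Signs that changed belonged to differences near 0 that passed nowhere. Hsd3b7 became 0.0067 with the averaged samples, 0.10 in set 1 alone and -0.054 to 0.021 with single arrays left out. Baat became 0.017 without control 1 and 4, 0.018 without knockout 7 and 8, 0.048 with the replicate block, 0.015 in set 1 alone and -0.084 to 0.025 with single arrays left out. Slc27a5 became 0.019 without control 1 and 4, 0.00116 without knockout 7 and 8, 0.018 with the replicate block and -0.028 to 0.0057 with single arrays left out. Nr5a2 became -0.019 in set 2 alone and -0.029 to 0.056 with single arrays left out. The background level of the arrays is not known here, but all 9 members lay above the array median on all 14 arrays.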
